A study of Homo sapiens with 6 samples.

Results

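The 10 genes described here are the alpha tubulins TUBA1A, TUBA1B, TUBA1C and TUBA4A and the beta tubulins TUBB, TUBB2A, TUBB2B, TUBB3, TUBB4B and TUBB6. They were chosen by symbol, and all 10 had a row among the 11957 rows of the deposited count table. Poly(A) RNA of OVCA433, a human cell line established from ovarian cancer, was sequenced with strand-specific libraries, 3 with the genotype label U2AF2 SI and 3 with the label U2AF2 SINC, called SI-labelled and SINC-labelled below. The series asks how loss of U2AF2, the large subunit of the factor that recognises 3′ splice sites, changes gene expression in ovarian cancer cells. The labels leave both abbreviations unexplained, give no agent or time, and name no separate cultures. P-values therefore cover the spread among these 6 libraries alone, and that spread may be technical.

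Alpha and beta tubulin form the heterodimer from which microtubules are built, and taxanes, used against ovarian cancer, bind the beta subunit inside the polymer. Human cells carry several genes for each subunit, called isotypes, whose proteins differ mostly in an acidic carboxy-terminal tail. Tubulin RNA is also under autoregulation: when free heterodimer is in excess, TTC5 recognises the first residues of a tubulin as it leaves the ribosome and the RNA being translated is degraded. In bulk RNA a lower level may reflect fewer cells with the transcript or less of it per cell, which cannot be told apart.

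The start of the reading frame is shown because it encodes the residues read in that autoregulation. The first 30 coding bases of 5 members, from transcripts of GENCODE release 29, follow with the first 4 codons in capitals.
TUBA1B: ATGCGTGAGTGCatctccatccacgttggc
TUBA4A: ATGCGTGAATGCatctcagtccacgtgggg
TUBB: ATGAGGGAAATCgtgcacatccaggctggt
TUBB2A: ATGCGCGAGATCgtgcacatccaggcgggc
TUBB3: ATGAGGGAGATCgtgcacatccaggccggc
TUBA1A and TUBA1C began with the same 30 bases as TUBA1B.

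The end of the reading frame is shown for the beta members because it separates the isotypes. Their last 60 bases before the stop codon, which hold 20 codons, follow with in-frame GAA and GAG, the glutamate codons, in capitals. Glutamate in the tail is where polyglutamate chains are added to tubulin.
TUBB: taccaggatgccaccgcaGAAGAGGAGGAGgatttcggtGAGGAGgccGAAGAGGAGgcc
TUBB2A: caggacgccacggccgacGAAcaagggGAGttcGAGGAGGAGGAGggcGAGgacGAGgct
TUBB2B: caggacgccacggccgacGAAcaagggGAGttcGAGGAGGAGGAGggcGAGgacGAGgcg
TUBB3: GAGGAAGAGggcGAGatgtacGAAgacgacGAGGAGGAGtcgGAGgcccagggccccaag
TUBB4B: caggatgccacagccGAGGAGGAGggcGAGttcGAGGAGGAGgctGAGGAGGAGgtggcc
TUBB6: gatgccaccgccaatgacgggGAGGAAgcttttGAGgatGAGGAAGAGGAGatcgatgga
The beta tails held between 7 glutamate codons, in TUBB6, and 10, in TUBB4B.

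In GENCODE release 29, annotated on GRCh38, each member's transcript has 4 exons and 3 introns, and the bases above are exonic and coding. TUBA1B (chr12:49127782-49131397, minus strand), TUBA1A (chr12:49184796-49189324, minus strand) and TUBA1C (chr12:49188736-49274603, plus strand) are neighbours. TUBB2A (chr6:3153669-3157526) and TUBB2B (chr6:3224261-3231730) lie near each other on the minus strand, and TUBB is on the same chromosome (chr6:30720201-30725426, plus strand). TUBA4A is on chromosome 2 (chr2:219249711-219278170, minus strand). TUBB3 (chr16:89921392-89938761), TUBB4B (chr9:137241213-137243707) and TUBB6 (chr18:12307669-12344320) are on the plus strands of other chromosomes.

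Several members are near copies of one another, which limits how well reads can be given to one gene. Over the coding sequence TUBB2A and TUBB2B were 98.1% identical, TUBA1A and TUBA1B 97.2%, and TUBA1B and TUBA1C 96.8%. TUBB was 80.9% to 84.7% identical to the other beta members. Of all stretches of 100 bases in its transcript, the share found in no transcript of another gene was 62.8% for TUBA1B, 43.6% for TUBB2A and 53.8% for TUBB2B. It was 94.9% for TUBB, 97.1% for TUBB4B and 100% for TUBB6. TUBB3 stood at 11.0%, because a second GENCODE locus, AC092143.1, contains most of its sequence. No source used here gives how the authors assigned reads that fit several genes. The split within TUBA1A, TUBA1B and TUBA1C, and between TUBB2A and TUBB2B, is therefore uncertain, as is the level of TUBB3. TUBA1C and TUBA1A overlap on opposite strands of chromosome 12 in the annotation, and whether counting used the strand is not stated.

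Between 43333966 and 48976810 counts were deposited per library, and a member had 364 to 119623 of them. U2AF2, the gene in both labels, was checked before the members. Its levels were 285, 345 and 373 CPM (counts as a share of the library total, scaled up for reading and corrected by TMM, edgeR's trimmed mean normalization) in SI-labelled libraries, against 252, 284 and 205 CPM in SINC-labelled libraries. The lower level was thus in the SINC-labelled libraries, with no overlap (log2 fold change 0.44 ± 0.19 SE, edgeR adjusted p = 0.653). That direction is opposite to what a loss of U2AF2 in the SI-labelled libraries would give. Taken alone, U2AF2 had an unadjusted edgeR p of 0.042, where 7.37% of all rows were under 0.05. The 95% bounds for SI over SINC were 1.01-fold and 1.81-fold, so equal levels lay just outside them. The table's columns for the SI-labelled libraries begin with N and those for the SINC-labelled libraries with S. Whether the labels were exchanged was not tested, and if they were, each SI over SINC direction below would turn round. Of 14 epithelial and ovarian carcinoma markers, 2 had a row, KRT8 at 32.9 to 52.5 CPM and KRT18 at 206 to 409 CPM over the 6 libraries. The other 12 had no row under their symbol and were not analysed here. Of 7 fibroblast markers, 3 had a row, with a summed level of 57.1 to 76.7 CPM in SI-labelled libraries and 39.2 to 62.3 CPM in SINC-labelled libraries. COL3A1 carried most of that sum, with means of 60.8 CPM in SI-labelled and 43.6 CPM in SINC-labelled libraries. COL1A1 reached at most 3.24 CPM and COL1A2 at most 1.86 CPM in any library. Of 7 leukocyte markers CD68 alone had a row, and of 6 endothelial markers 0 did.

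By the deposited counts TUBA1B was the highest alpha isotype in each library, in CPM (1975 to 2681, against 1018 to 1407 for TUBA1C) as well as per length. The split of reads within TUBA1A, TUBA1B and TUBA1C remains uncertain. Per length of transcript the beta isotypes were led by TUBB and TUBB4B, which overlapped in level, with the other beta members below them in each library. That overlap rests on the transcript lengths taken, 2670 bases for TUBB and 1637 for TUBB4B. In CPM, TUBB (1144 to 1674) lay above TUBB4B (498 to 949) in each library, without overlap. On a per-length scale (RPKM, CPM per kb of transcript) TUBA1B, a widely expressed alpha tubulin, was the highest member in each of the 6 libraries. Its level averaged 1481 ± 169 RPKM (SD, n = 3) in SI-labelled libraries and 1426 ± 189 RPKM (SD, n = 3) in SINC-labelled libraries. TUBB, the class I beta tubulin of most dividing cells, came next with 533 ± 87.6 RPKM in SI-labelled libraries and 482 ± 46.9 RPKM in SINC-labelled libraries.

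Below these stood TUBB4B, the class IVb beta tubulin, at 442 ± 138 RPKM in SI-labelled libraries and 438 ± 55.9 RPKM in SINC-labelled libraries. TUBA1C had 403 ± 52.8 RPKM in SI-labelled libraries and 413 ± 66.6 RPKM in SINC-labelled libraries. Per length of transcript, TUBB, TUBB4B and TUBA1C did not separate beyond their spread over the 6 libraries, and their order varied. In CPM, TUBB (1144 to 1674) and TUBA1C (1018 to 1407) were both above TUBB4B (498 to 949) in each library. On the per-length scale TUBB4B was above TUBB in a single library, SI-labelled replicate 2, at 579.6 against 518 RPKM. In CPM it was below TUBB there, at 949 against 1383.

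TUBB6, the class V beta tubulin, averaged 275 ± 35.5 RPKM in SI-labelled libraries and 301 ± 22.4 RPKM in SINC-labelled libraries. TUBA1A, the main alpha isotype of developing neurons, followed at 96.4 ± 12.5 RPKM in SI-labelled libraries and 96.8 ± 13.04 RPKM in SINC-labelled libraries. TUBB3, the class III isotype of neurons whose expression in tumours has been studied in connection with taxane resistance, had 72.9 ± 20.4 RPKM in SI-labelled libraries and 73.1 ± 8.64 RPKM in SINC-labelled libraries. The ranges of TUBA1A and TUBB3 overlapped. Per length of transcript, the lowest 3 members did not overlap with each other or with TUBB3. TUBB2A ranged from 27.003 to 47.0 RPKM over the 6 libraries, TUBB2B from 5.68 to 10.2 RPKM and TUBA4A from 4.15 to 5.58 RPKM. In CPM the ranges of TUBB2B (11.5 to 20.6) and TUBA4A (8.96 to 12.1) overlapped, with TUBB2B the higher in each library.

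**Figure D1:**
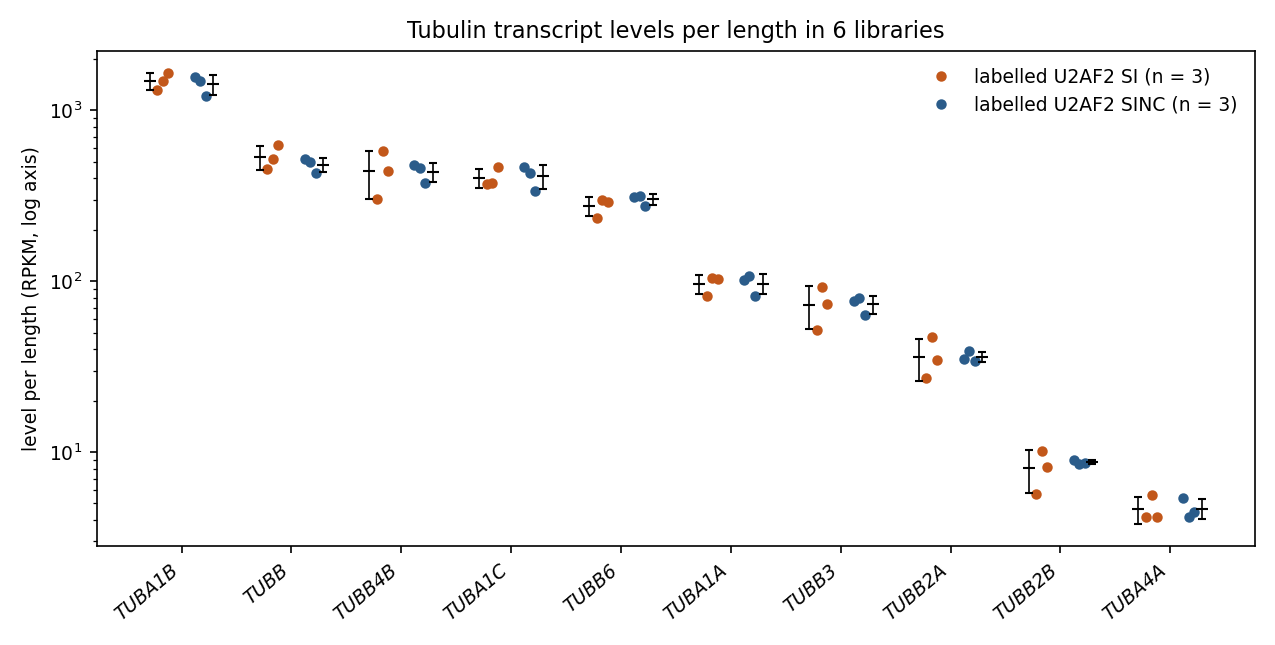
Level per length (RPKM, log axis) of the 10 tubulin genes, ordered by their mean over 6 libraries. Points are single libraries, orange for U2AF2 SI and blue for U2AF2 SINC, and bars give the mean ± SD (n = 3). TUBA1B lies above all others in both groups, and the points of the groups overlap for each gene.

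Between the groups, 0 of the 10 tubulin genes passed edgeR's quasi-likelihood test (adjusted p under 0.05 over all rows), where 0.00836% of all rows did. By unadjusted p under 0.05 the count was again 0 of 10, against 7.37% of all rows. DESeq2 gave an adjusted p to 6 members and called 0, beside 5.74% of the 1062 rows to which it gave one, and limma-voom called 0 members. The group ranges of TMM-scaled CPM overlapped for all 10, where 13.0% of all rows had no overlap. Log2 fold changes of SI-labelled libraries over SINC-labelled libraries lay between -0.13 and 0.15, 4 above and 6 below 0, with a median of -0.0053 against 0.04 over all rows. Standard errors were 0.18 to 0.25, and edgeR adjusted p ran from 0.859 to 0.998. The 95% intervals of all 10 lay within -0.65 and 0.57 on the log2 scale, that is 0.637-fold to 1.49-fold.

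Among the alpha members, TUBA1B had 2130, 2416 and 2681 CPM in SI-labelled libraries, against 2568, 2415 and 1975 CPM in SINC-labelled libraries. The highest library was SI-labelled and the lowest SINC-labelled, and the others interleaved (log2 fold change 0.05 ± 0.19 SE, edgeR adjusted p = 0.952). TUBA1C, a close paralog, had 1112, 1123 and 1392 CPM in SI-labelled libraries, against 1407, 1290.2 and 1018 CPM in SINC-labelled libraries. Both extremes of TUBA1C were in the SINC group (log2 fold change -0.04 ± 0.20 SE, edgeR adjusted p = 0.972).

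TUBA1A was at 157, 200.2 and 196 CPM in SI-labelled libraries, against 194, 205 and 157 CPM in SINC-labelled libraries. Each group thus held 1 low library near 157 CPM. TUBA4A, an isotype enriched in platelets and striated muscle, had 461, 597 and 382 counts in SI-labelled libraries, against 497, 364 and 443 counts in SINC-labelled libraries, the lowest counts of the members. Log2 fold changes were -0.0068 ± 0.18 (SE) for TUBA1A and -0.01 ± 0.25 (SE) for TUBA4A, with edgeR adjusted p of 0.994 and 0.991.

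TUBB had the largest positive difference of the members with TMM scaling. It stood at 1212, 1383 and 1674 CPM in SI-labelled libraries, against 1379, 1336 and 1144 CPM in SINC-labelled libraries. SI-labelled replicate 3 was highest, while replicate 1 of that label was below 2 of the SINC libraries (log2 fold change 0.15 ± 0.19 SE, 95% interval -0.28 to 0.57, edgeR adjusted p = 0.859). Without SI-labelled replicate 3 the log2 fold change of TUBB was 0.0127, and with the length and GC trend removed it was 0.0652, below TUBA1B, TUBB2A, TUBB4B and TUBB3. TUBB6 had the largest negative difference with TMM scaling, with 484, 620.02 and 599 CPM in SI-labelled libraries against 645, 652 and 568 CPM in SINC-labelled libraries. The lowest library was SI-labelled replicate 1, and the others overlapped (log2 fold change -0.13 ± 0.18 SE, 95% interval -0.53 to 0.26, edgeR adjusted p = 0.863). Without that library the log2 fold change of TUBB6 was -0.04. TUBB2B was more negative than TUBB6 in limma-voom (-0.16 against -0.14), with the replicate block and with the length and GC trend removed. It was so too without SI-labelled replicate 2 and without SINC-labelled replicate 2. With the trend removed TUBA1C was the most negative member, at -0.17. Without SI-labelled replicate 2, TUBB4B (-0.22), TUBB2A (-0.22) and TUBB3 (-0.20) were also more negative than TUBB6 (-0.19).

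TUBB4B had 498, 949 and 723 CPM in SI-labelled libraries, against 789, 750 and 614 CPM in SINC-labelled libraries. Both the lowest and the highest library were SI-labelled, 1.91-fold apart, while the SINC libraries spanned 1.28-fold (log2 fold change 0.01 ± 0.24 SE, edgeR adjusted p = 0.993). Both extremes of TUBB3 were SI-labelled as well, with 92.01, 164 and 131 CPM in SI-labelled libraries against 136, 140.3 and 112 CPM in SINC-labelled libraries (log2 fold change -0.0039 ± 0.22 SE, edgeR adjusted p = 0.997). Its 95% interval ran from -0.48 to 0.47, or 0.717-fold to 1.39-fold.

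TUBB2A, one of the class II isotypes, had 43.1, 74.9 and 54.9 CPM in SI-labelled libraries, against 56.2, 62.2 and 54.3 CPM in SINC-labelled libraries. TUBB2B, its near copy, had 11.5, 20.6 and 16.6 CPM in SI-labelled libraries, against 18.2, 17.3 and 17.4 CPM in SINC-labelled libraries. The coefficient of variation of TUBB2A was 27.9% in SI-labelled and 7.14% in SINC-labelled libraries, that of TUBB2B 28.2% in SI-labelled and 2.94% in SINC-labelled libraries, and for both genes the SINC range lay inside the SI range. Log2 fold changes were 0.0022 ± 0.21 (SE) and -0.12 ± 0.24 (SE), with edgeR adjusted p of 0.998 and 0.908.

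**Figure D2:**
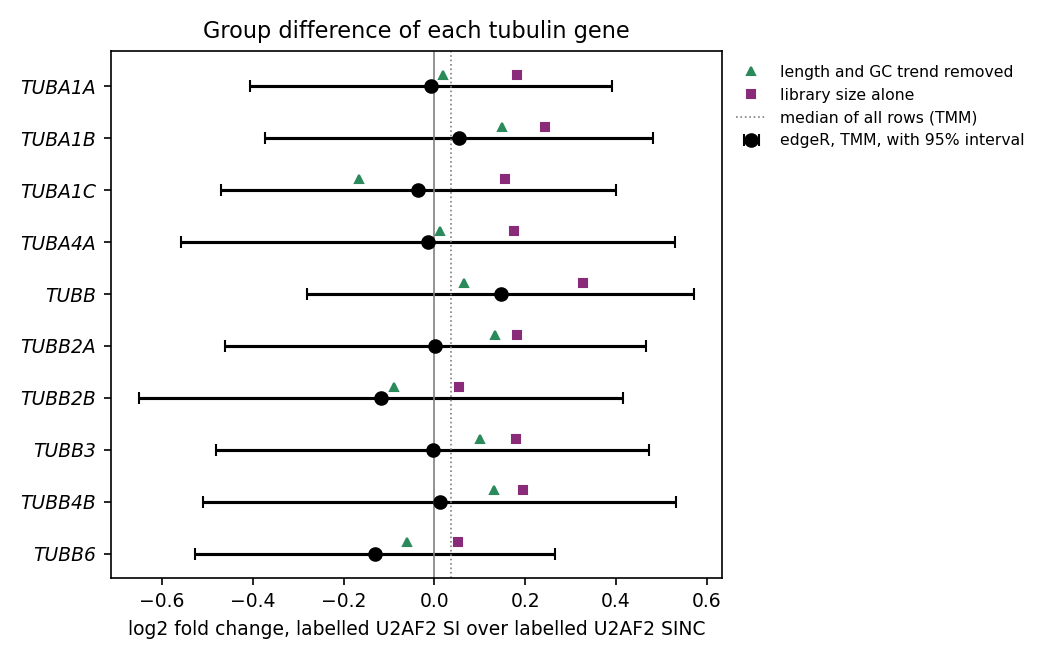
Log2 fold change of each tubulin gene, SI-labelled libraries over SINC-labelled libraries (3 each). Black points with bars are edgeR estimates with 95% intervals; triangles and squares are the estimates after removal of the length and GC trend and with library size alone, and the dotted line is the median of all rows. All 10 intervals include 0, and with library size alone all 10 estimates lie above 0.

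The direction of the family as a whole depended on the scaling. Scaling by library size alone put the median of all rows at 0.22, and each of the 10 log2 fold changes was above 0, at 0.05 to 0.33. Relative to that shift TUBA1B (0.24) and TUBB (0.33) lay above the median of all rows and the other 8 below it. The members took 0.669%, 0.744% and 0.729% of all deposited counts in SI-labelled libraries and 0.630%, 0.614% and 0.599% in SINC-labelled libraries, with no overlap. The largest row of the table, an assembled locus without a gene name, took 13.5% ± 2.56 of the counts in SI-labelled libraries and 17.3% ± 1.71 in SINC-labelled libraries (SD, n = 3 each). Leaving that row out of the total gave 0.759%, 0.847% and 0.873% in SI-labelled libraries and 0.780%, 0.736% and 0.713% in SINC-labelled libraries, and the groups then overlapped.

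The summed alpha and beta levels overlapped between the groups. Summed per length, alpha members gave 1984 ± 227 RPKM in SI-labelled libraries and 1940 ± 268 RPKM in SINC-labelled libraries (SD, n = 3 each). Beta members gave 1367 ± 254 RPKM in SI-labelled libraries and 1339 ± 134 RPKM in SINC-labelled libraries. The ratio of alpha to beta was 1.64, 1.27 and 1.503 in SI-labelled libraries, against 1.505, 1.45 and 1.38 in SINC-labelled libraries. Both extremes were SI libraries, replicate 1 high and replicate 2 low, and these sums carry no test because they are scores over chosen genes.

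Isotype shares do not depend on the scaling between libraries. The ranges of 2 of the 10 shares did not overlap between the groups, beside 13.0% of all rows for CPM. Within alpha tubulin, per length, TUBA1B made up 74.1%, 75.4% and 74.3% in SI-labelled libraries, against 73.29%, 73.28% and 74.03% in SINC-labelled libraries. The difference of the means was 1.08 percentage points without overlap (2-sided exact permutation p = 0.1, the smallest that 3 against 3 can give). It was 0.680 without SI-labelled replicate 2, and 3.59 with the length and GC trend removed, where the groups overlapped (exact permutation p = 0.2). TUBA1C made up 21.0%, 19.0% and 20.9% in SI-labelled libraries and 21.8%, 21.2% and 20.7% in SINC-labelled libraries (exact permutation p = 0.3). TUBA1A held 4.86% ± 0.390 in SI-labelled libraries and 5.00% ± 0.301 in SINC-labelled libraries (SD, n = 3 each). TUBA4A held 0.235% ± 0.048 of SI-labelled and 0.243% ± 0.034 of SINC-labelled alpha tubulin.

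Within beta tubulin, TUBB6 made up 21.8%, 19.4% and 19.7% per length in SI-labelled libraries, against 21.8%, 22.5% and 23.2% in SINC-labelled libraries. The groups did not overlap, but the closest libraries were at 21.771% (SI-labelled) and 21.828% (SINC-labelled), and the difference of the means was -2.25 percentage points (exact permutation p = 0.1). With the length and GC trend removed it was -1.79 and the groups overlapped (exact permutation p = 0.3). TUBB made up 42.1%, 33.5% and 42.5% in SI-labelled libraries, against 36.1%, 35.7% and 36.2% in SINC-labelled libraries. SI-labelled replicates 1 and 3 were above and replicate 2 below all SINC libraries, a difference of means of 3.38 percentage points (exact permutation p = 0.4) that was 6.33 without replicate 2 and 1.82 without SI-labelled replicate 3.

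TUBB4B made up 28.2%, 37.4% and 29.9% in SI-labelled libraries, against 33.7%, 32.7% and 31.7% in SINC-labelled libraries (exact permutation p = 0.9). Its share was highest in SI-labelled replicate 2, where that of TUBB was lowest. Shares of a class add up to a fixed total, so large shares tend to move against each other. In CPM both TUBB (1212) and TUBB4B (498) were lowest in replicate 1 among the SI-labelled libraries. TUBB3 made up 4.83%, 5.99% and 5.01% in SI-labelled libraries and 5.36%, 5.66% and 5.34% in SINC-labelled libraries (exact permutation p = 0.7). Together TUBB2A and TUBB2B gave 3.21% of beta tubulin in SI-labelled libraries and 3.36% in SINC-labelled libraries. Over the 10 shares, exact permutation p ran from 0.1 to 0.9. The share of TUBA1B rests on the transcript length taken for TUBA1C (3001 bases): per coding length it averaged 63.1% in SI-labelled libraries and 61.8% in SINC-labelled libraries, and the groups then overlapped (exact permutation p = 0.2). The shares of TUBB and TUBB4B rest on transcript length as well. Per coding length TUBB averaged 49.2% of beta tubulin in SI-labelled libraries and 45.6% in SINC-labelled libraries. TUBB4B then averaged 24.5% in SI-labelled libraries and 25.3% in SINC-labelled libraries.

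**Figure D3:**
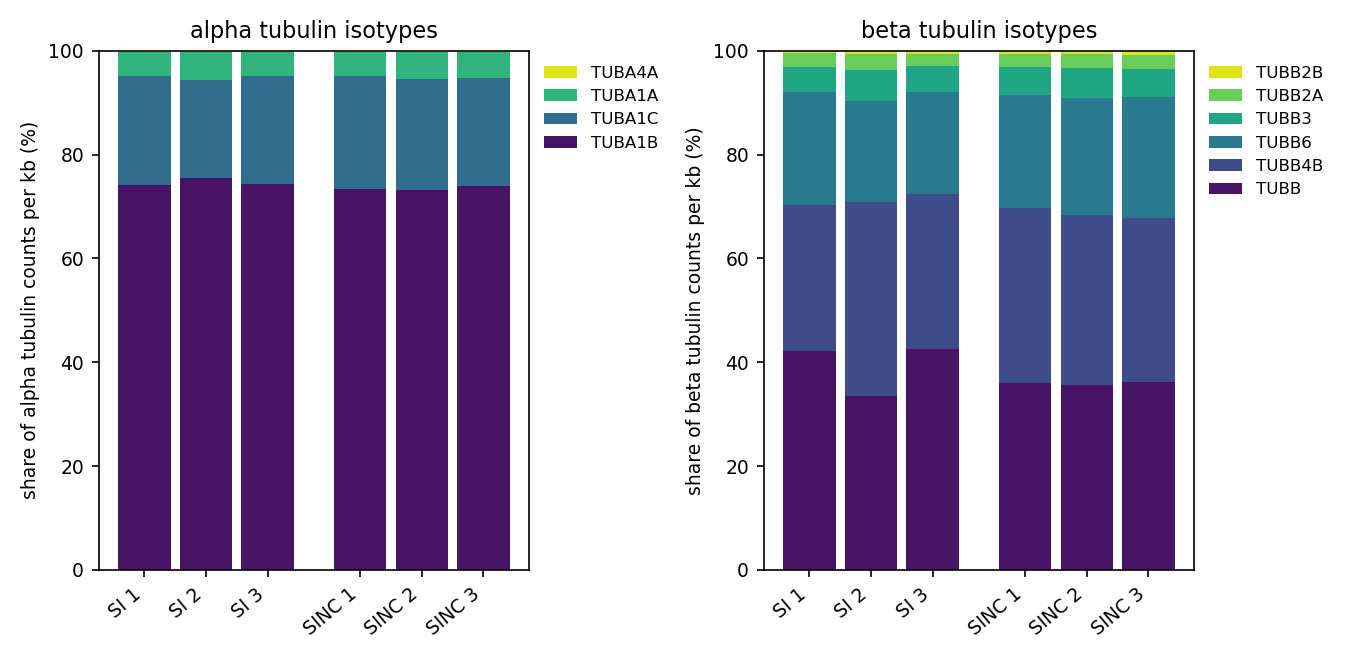
Share of each isotype (%) in the summed counts per kb of alpha tubulin (left) and beta tubulin (right), one bar per library, with U2AF2 SI replicates left of U2AF2 SINC replicates. TUBA1B takes over 73% of alpha tubulin in each library, and SI 2 has the smallest TUBB and the largest TUBB4B segment.

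Among the SI-labelled libraries the highest was 1.25-fold to 1.91-fold above the lowest for each member, and among the SINC-labelled libraries 1.05-fold to 1.38-fold. The SINC spread was the larger for TUBA1A, TUBA1B and TUBA1C and the SI spread for the other 7, and GC content moved with part of this variation. SI-labelled replicate 1 was the lowest library for 7 of 10 members and below the mean of the 6 libraries for all 10. Replicate 2 of the same label was the highest for 5, namely TUBA4A, TUBB2A, TUBB2B, TUBB3 and TUBB4B. SINC-labelled replicate 3 was the lowest for TUBA1B, TUBA1C and TUBB. TUBB3, with the highest GC content of the members (62.6%), lay -0.47 from its mean in replicate 1 and 0.37 in SI-labelled replicate 2 on the log2 scale. TUBB4B (59.4% GC) lay -0.504 and 0.43 from its mean in these libraries, whereas TUBA1C (51.6% GC) lay -0.13 and -0.11 from it.

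A smooth trend on the length and GC content of the transcript was fitted in each library over all rows with a known transcript. It took up much of this variation for some members, but the span over the 6 libraries did not narrow for TUBA1C and TUBA4A. Among the SI-labelled libraries alone, the span of TUBA1C went from 0.32 to 0.29 and that of TUBA4A from 0.43 to 0.36. For TUBB3 the trend alone was -0.49 in replicate 1 and 0.31 in SI-labelled replicate 2. With it removed, TUBB3 spanned 0.13 over the 6 libraries, where it had spanned 0.84 as measured. TUBB4B then spanned 0.35, where it had spanned 0.93, and TUBB6 0.21 where it had spanned 0.43. TUBB spanned 0.43 after removal and 0.55 before. TUBA1C, the longest transcript, spanned 0.61 after removal and 0.47 before, and TUBA4A 0.44 after and 0.43 before. With the trend removed 0 of 10 members passed in edgeR. Share differences moved both ways: that of TUBB was 0.08 percentage points in place of 3.38, while that of TUBA1B was 3.59 in place of 1.08 and that of TUBA1C -3.38 in place of -0.93.

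**Figure D4:**
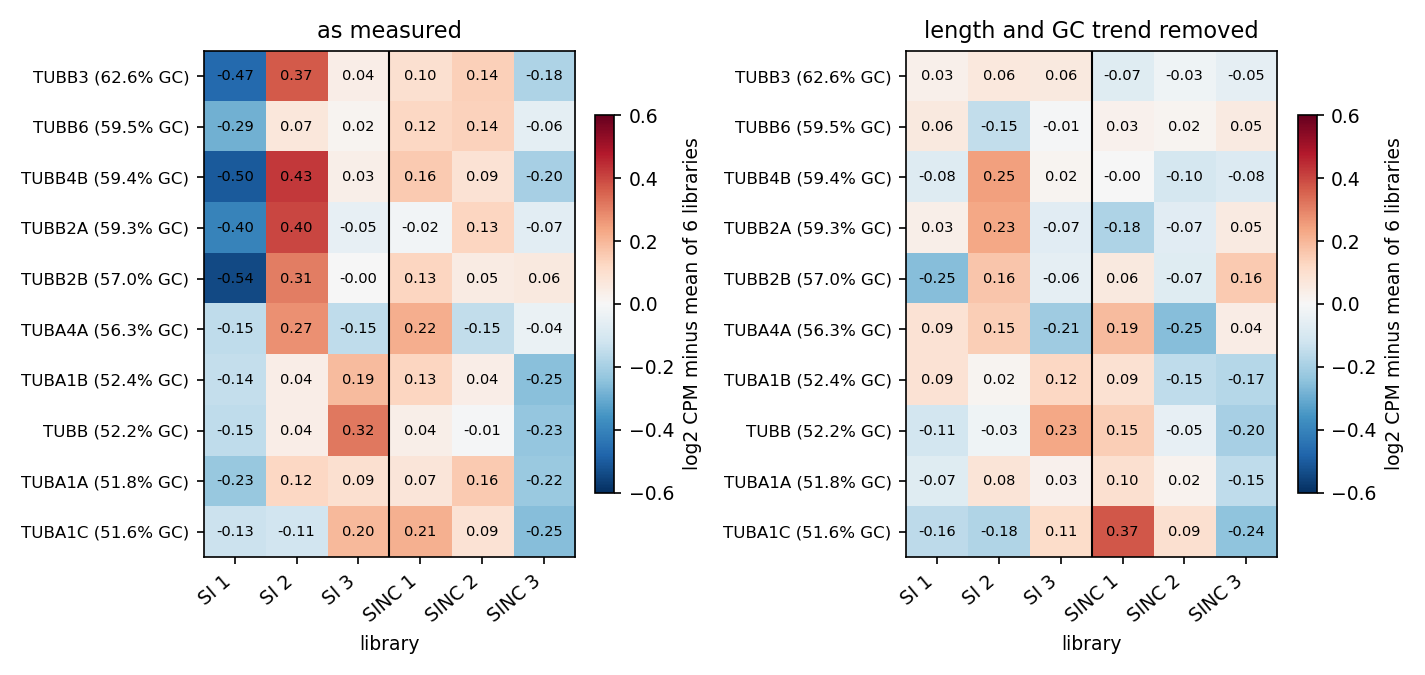
Deviation of each tubulin gene from its own mean over the 6 libraries (log2 CPM), as measured (left) and after removal of the length and GC trend (right). Rows are ordered from high to low GC content and columns are libraries, U2AF2 SI left of U2AF2 SINC. In the left panel TUBB3, TUBB4B, TUBB2A, TUBB2B and TUBA4A are lowest in SI 1 and highest in SI 2, at up to -0.54 and 0.43. TUBB6, of similar GC content to TUBB4B, is highest in SINC 2. In the right panel TUBB3 lies within 0.07 of 0 in each library.

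Genes that fold, modify, bind or sever tubulin were examined beside the members, and in each of 5 lists 0 passed edgeR's test over all rows (0.00836% of all rows did). Without overlap between groups were 1 of 14 measured genes of the gamma tubulin list, 2 of 19 of the modifying enzymes and 1 of 9 of the severing list, beside 13.0% of all rows, and by unadjusted p under 0.05 the counts were 1, 0 and 0, beside 7.37% of all rows. Of 21 other tubulins and gamma tubulin ring components, which nucleate microtubules, 14 had a row, 9 above and 5 below 0, with a median log2 fold change of 0.07 against 0.04 over all rows. MZT2B, a small subunit of the gamma tubulin ring, had 69.9, 136 and 99.5 CPM in SI-labelled libraries, against 203, 161 and 117 CPM in SINC-labelled libraries. The ranges overlapped (log2 fold change -0.65 ± 0.26 SE, edgeR adjusted p = 0.653). MZT2A, its paralog, stood at -0.51 ± 0.27 (SE) on the log2 fold change scale and TUBGCP4, another ring subunit, at 0.34 ± 0.23 (SE).

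All 12 genes for tubulin folding and autoregulation had a row, 3 above and 9 below 0 (median -0.09). TBCA, the cofactor that holds beta tubulin during folding, had 173, 132 and 178 CPM in SI-labelled libraries, against 180.02, 229.6 and 216 CPM in SINC-labelled libraries. The groups did not overlap, though the nearest were an SI-labelled library at 178 CPM and a SINC-labelled one at 180.02 CPM (log2 fold change -0.37 ± 0.19 SE, edgeR adjusted p = 0.686). TXNDC9 and PDCL3, phosducin-like proteins that act with the chaperonin TRiC, also showed no overlap. TXNDC9 differed by a log2 fold change of -0.46 ± 0.19 (SE, edgeR adjusted p = 0.653) and PDCL3 by -0.33 ± 0.17 (SE, edgeR adjusted p = 0.687). In this list 4 of 12 genes had no overlap, against 13.0% of all rows, and by unadjusted p under 0.05 TXNDC9 alone passed, 1 of 12, against 7.37% of all rows.

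Enzymes that modify tubulin, 19 of 19 with a row, divided into 11 above and 8 below 0 (median 0.09). TTLL4, a glutamylase, had 47.4, 48.6 and 58.8 CPM in SI-labelled libraries, against 43.9, 37.7 and 43.6 CPM in SINC-labelled libraries, without overlap (log2 fold change 0.30 ± 0.18 SE, edgeR adjusted p = 0.699). The log2 fold change was -0.45 ± 0.27 (SE) for SVBP, the partner of the vasohibin detyrosinases, and 0.60 ± 0.38 (SE) for TTLL11, a glutamylase that lengthens side chains, and both overlapped between groups.

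Of 25 genes for microtubule binding and dynamics, 24 had a row, 22 above and 2 below 0, with a median of 0.25 against 0.04 over all rows. The median of all rows was itself above 0. The share of all rows above 0 is not given here, so the 22 genes cannot be set against it. By unadjusted p under 0.05, 4 were higher, beside 3.15% of all rows, and 0 lower, beside 4.22% of all rows. The groups did not overlap for 3 of 24 genes, near the 13.0% of all rows. These counts and this median, like those of the other lists, come from TMM scaling without removal of the length and GC trend. Whether they would change with the trend removed was not tested. CAMSAP1, which binds microtubule minus ends, had 31.6, 31.3 and 29.7 CPM in SI-labelled libraries, against 22.8, 20.9 and 25.04 CPM in SINC-labelled libraries. These groups did not overlap (log2 fold change 0.43 ± 0.18 SE, edgeR adjusted p = 0.653). For NAV1 and MAPRE2, proteins of growing microtubule ends, the log2 fold change was 0.70 ± 0.28 (SE) in NAV1 and 0.64 ± 0.28 (SE) in MAPRE2, both with an edgeR adjusted p of 0.653.

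Of 10 severing enzymes and depolymerases, 9 had a row, 4 above and 5 below 0 (median -0.0070). FIGNL1, an ATPase of the severing family that also acts in DNA repair, had 9.26, 5.57 and 4.60 CPM in SI-labelled libraries, against 2.24, 3.38 and 5.35 CPM in SINC-labelled libraries, with overlap (log2 fold change 0.82 ± 0.39 SE, edgeR adjusted p = 0.677). KATNAL1, a katanin, was at -0.62 ± 0.40 (SE) and KIF18B, a kinesin of microtubule ends, at 0.20 ± 0.17 (SE) on the log2 fold change scale.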

How the data were processed

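The table deposited by the authors holds whole-number counts per gene or assembled locus, with a different total in each library, and was used as raw counts. Per the submitters' processing notes CASAVA and StringTie were used, in unstated roles; no source used here gives the aligner, build, annotation or any filter on rows. Columns were tied to libraries by the sample descriptions, and 0 were left over. The 10 members, the lists and the tests were chosen with earlier results of these data known. Differences, SI-labelled minus SINC-labelled, were tested over all 11957 rows with edgeR 4.0.16 (R 4.3.3; TMM, filterByExpr, glmQLFit and glmQLFTest, Benjamini-Hochberg adjustment, threshold 0.05), with SE from the F statistic. Alternatives used other scalings and filters, DESeq2 1.42.0, limma-voom (limma 3.58.1), the replicate number as a block, omission of each library, and the removal, library by library, of loess trends (span 0.3) on the length and GC content of transcripts. For shares and sums the trends were added after seeing the data. Lengths, found for 92.4% of rows, came from the longest APPRIS principal transcript in GENCODE release 29, or the longest other transcript. Shares of the 10 members were compared by 2-sided exact permutation tests, without adjustment. The same test was also run on the summed TUBA1 and TUBB2 shares and under the alternative settings. Named genes were the members, U2AF2 and the 3 genes with the smallest p of each of 5 lists. The edgeR fit was tested on counts simulated from its own means and dispersions, without length or GC trends. The outcome is not given here, and no statement about the members rests on it. Libraries of a group differed by a chi-square of 56.0 to 170 per degree of freedom, so none repeated another. PCR copies of a molecule cannot be told from new molecules in these counts. Some sequence is not reported here.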

Additional observations from a re-analysis of the deposited data

How the results depend on the processing

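Tubulin members past the threshold numbered 0 in each of the 15 alternatives to edgeR with TMM. The alternative without a row filter repeated the main fit, because filterByExpr had kept all 11957 rows, so it could not differ. DESeq2 gave an adjusted p to 6 members only. Over the whole table a single row passed with TMM, 0 with upper-quartile factors, library size alone, rows of at least 5 CPM on average or the length and GC trend removed, 61 with DESeq2 (1 higher, 60 lower), and 0 to 2 when 1 library was left out. Replicate numbers did not pair the libraries: deviations from the group means of replicates 1, 2 and 3 correlated at -0.271, 0.227 and -0.383 between the groups, each library of numbers 1 and 3 in the SI group correlated best with another number, and with the replicate block 2 rows and 0 members passed. By unadjusted p under 0.05 TUBB alone passed, with library size alone. The lowest adjusted p of any member in any alternative was 0.518. Over the alternatives that kept all libraries, 20 of 90 log2 fold changes of members changed sign, where the 90 include the unfiltered repeat. With library size alone those that changed sign were TUBA1A (0.18), TUBA1C (0.16), TUBA4A (0.18), TUBB2B (0.0542), TUBB3 (0.18) and TUBB6 (0.0527). The alpha sum then had a log2 ratio of 0.22. With the length and GC trend removed they were TUBA1A (0.0197), TUBA4A (0.0118) and TUBB3 (0.10). TUBB2A turned to -0.0151 with RLE factors, -0.0222 with upper-quartile factors, -0.0036 with rows of at least 5 CPM, -0.0322 with the replicate block, -0.0151 in DESeq2 and -0.0324 in limma-voom. TUBB4B turned to -0.0055 with RLE factors, -0.0157 with upper-quartile factors, -0.0270 with the replicate block, -0.0055 in DESeq2 and -0.0294 in limma-voom. When 1 library was left out, log2 fold changes ran from -0.11 to 0.0849 for TUBA1A, -0.0478 to 0.13 for TUBA1B, -0.16 to 0.0669 for TUBA1C, -0.16 to 0.10 for TUBA4A, -0.22 to 0.16 for TUBB2A, -0.32 to 0.0650 for TUBB2B, -0.20 to 0.18 for TUBB3 and -0.22 to 0.21 for TUBB4B; those of TUBB (0.01 to 0.24) and TUBB6 (-0.19 to -0.04) kept their sign. Share differences then ran from -0.37 to 0.0067 percentage points for TUBA1A, -0.0317 to 0.0165 for TUBA4A, -0.28 to 0.0652 for TUBB2A, -0.53 to 0.0480 for TUBB3, -3.58 to 1.02 for TUBB4B and -0.398 to 0.0029 for TUBB2A and TUBB2B summed, and from -0.0165 to 0.0317 for the TUBA1 genes summed. With the trend removed the share differences of TUBB2A (0.13), TUBB3 (0.14), TUBB4B (1.52) and the TUBB2 pair (0.0588) changed sign. The cause of these changes was not tested.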
